A study of Gloeophyllum trabeum with 9 samples.

Results

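Among the gene models of the brown rot fungus Gloeophyllum trabeum, 181 of 11846 (1.53%) were expressed on glucose and stood at 0.1 of that level or lower on both cellulose and Japanese cedar wood. They were chosen by their own values. A gene model was taken when its mean on glucose was at least 5 TPM, its means on cellulose and on cedar were each at most 0.1 of that, and all of its glucose values lay above all of its cellulose and cedar values. One further gene model met these numbers and was left out because it stands in the study's lists of degradation genes. The differences from glucose below are therefore a description of what the choice took, and carry no test. TPM is a transcript abundance corrected for transcript length, so levels of different genes can be set side by side. The values are TPM that the authors normalized between libraries.

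The strain was NBRC6430, and RNA came from mycelium of shaken liquid cultures in a mineral medium that differed in the only carbon source, with the cellulose and the wood flour made into nanofibres beforehand. There were 3 glucose cultures harvested after 3 days, 3 cellulose cultures harvested after 5 days and 3 cultures with Japanese cedar wood harvested after 5 days, with 1 library for each. The carbon source and the age of the culture changed together, so their parts in the choice of these genes cannot be told apart. The summed TPM ranged from 678148 to 1680448 between the libraries and was highest on cellulose. The labels name no batch. In bulk RNA, a lower level in every cell and fewer cells that express a gene cannot be told apart.

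Brown rot fungi remove the cellulose and hemicellulose of wood and leave a modified lignin behind. In many fungi free glucose shuts off genes for the breakdown of plant polymers, a control known as carbon catabolite repression, while mycelium fed with sugar runs other programs of growth, cell wall building and secondary metabolism. Genes of 1 secondary metabolite pathway often lie side by side in fungal genomes, typically a synthase with oxidases, dehydrogenases and a transporter.

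On glucose the 181 genes made up a large part of all transcripts. Their summed TPM was 106948, 98856 and 107377 in the 3 glucose libraries, 3577, 3450 and 2290 in the 3 cellulose libraries and 1361, 1192 and 1328 in the 3 cedar libraries. This came to 14.3% ± 1.51 of the library sum on glucose (SD, n = 3), to 0.190% ± 0.0476 on cellulose and, on cedar, to 0.156% ± 0.0108. The glucose part rested on a small number of genes, since the 5 highest members held 50.01% of the members' summed glucose mean and the 10 highest held 62.3%. The genes were otherwise spread over a wide range, with 8 members at a glucose mean from 5 to under 10 TPM, 69 from 10 to under 100 TPM, 86 from 100 to under 1000 TPM and 18 at 1000 TPM or more. The median glucose mean was 137 TPM, against medians of 2.75 TPM on cellulose and 3.30 TPM on cedar.

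**Figure D1:**
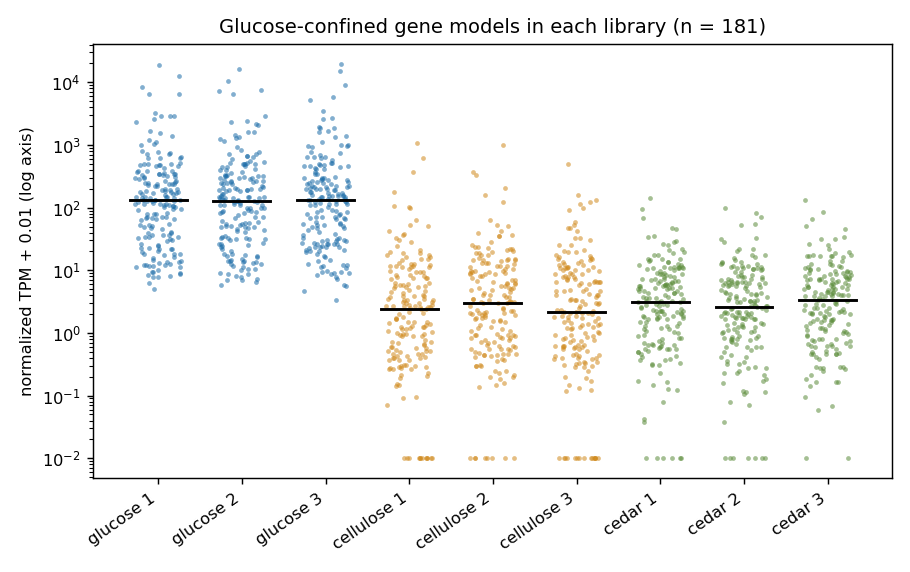
Normalized TPM + 0.01 (log axis) of the 181 members in each of the 9 libraries, 1 point for each member, with a black bar at the median. The library medians lie between 129 and 133 TPM on glucose and between 2.13 and 3.29 TPM on the other carbon sources, and the points on the lowest line are members listed at 0.

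Few of these genes were fully silent away from glucose. On cellulose and cedar 160 members were above 0 in all 6 libraries, and 73 on cellulose and 69 on cedar kept a mean of at least 5 TPM. At the other end, 43 members had means under 1 TPM on both substrates. The median ratio to the glucose mean was 0.0303 on cellulose and 0.0295 on cedar, both ratios were under 0.01 in 29 members and both were under 0.001 in 3 members. Without read counts, the depth behind such low values is unknown.

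The highest member was Glotr_132972, with 18906, 16598 and 19839.6 TPM in the glucose libraries. It had 1075, 1017 and 495 TPM on cellulose and 140.2, 71.1 and 132 TPM on cedar, a glucose mean 21.4 and 161 times as high. Its level on cellulose was still that of an abundant transcript, and the cellulose and cedar libraries did not overlap. The next, Glotr_127937, had 12746, 10418 and 14973 TPM on glucose, 9.55, 10.7 and 6.46 on cellulose and 4.26, 8.56 and 7.87 on cedar. This short gene, with a span of 356 bases, thus stood 1429 and 1844 times higher on glucose, and its cellulose and cedar libraries overlapped.

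The other members with very high glucose levels were lower on the substrates by different amounts. Glotr_132963 had 8437, 7557 and 9235 TPM on glucose, 368, 369 and 158 on cellulose and 47.7, 32.01 and 51.5 on cedar. Glotr_111144 had 6546, 7191 and 5849.9 TPM on glucose, 616, 332 and 134 on cellulose and 8.60, 11.9 and 6.98 on cedar, the largest ratio of cellulose to cedar among the top 10. Glotr_76867 had means of 6112 ± 727, 143 ± 53.7 and 29.1 ± 6.54 TPM (SD, n = 3) on glucose, cellulose and cedar. In all 3 of these genes every cellulose library was above every cedar library. Among the rest of the top 10, Glotr_33811 is a hypothetical protein with a glucose mean of 2918 TPM, and Glotr_110634, Glotr_61365, Glotr_106548 and Glotr_111225 had glucose means of 2902, 2465, 2388 and 2145 TPM. The ratio of the glucose mean to the cellulose mean ran from 15.1 to 1429 over these 10 genes, and that to the cedar mean from 34.2 to 1844. Of the 10, only Glotr_33811 has a name among those held, and it names no function.

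**Figure D2:**
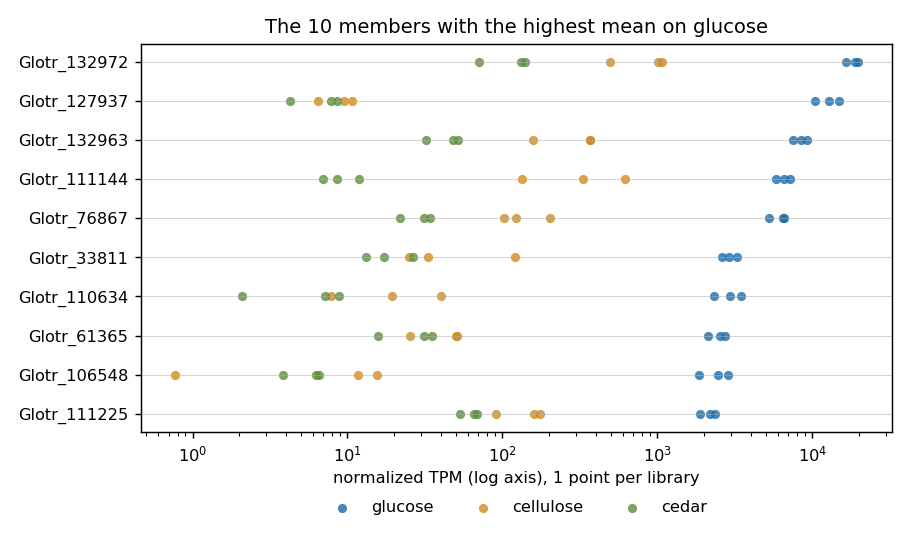
Normalized TPM (log axis) of the 10 members with the highest glucose mean, 1 point for each library, with the genes from the highest mean at the top. All glucose points lie at or above 1849.5 TPM, and the cellulose points of Glotr_132972, Glotr_132963, Glotr_111144, Glotr_76867 and Glotr_111225 lie to the right of all their cedar points.

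The sharpest contrast to glucose was that of Glotr_127974, a gene of 293 bases with 234, 275 and 245 TPM on glucose and listed at 0 in all 6 other libraries. Glotr_137908 followed, with 994, 845 and 1364 TPM on glucose, 0.354, 0.346 and 0.292 on cellulose and 0.515, 0.404 and 0.236 on cedar. Neither substrate brought it to 1 TPM, a glucose mean 3227 and 2772 times as high. It lies 5328 bases and 1 annotated gene away from another member, Glotr_137907, which had 1546, 1463 and 1946 TPM on glucose and means of 5.95 TPM on cellulose and 7.89 TPM on cedar. Glotr_134774, Glotr_79159, Glotr_121577, Glotr_70192, Glotr_96872 and Glotr_90321 completed the 10 steepest together with Glotr_127937 and Glotr_45916, a glucanase-like gene described with the named members. Their glucose means ran from 54.98 TPM (Glotr_90321) to 866 TPM (Glotr_96872), leaving out Glotr_127937 and Glotr_45916, and the larger of the ratios to glucose was at most 0.00277.

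The edge of the choice was soft for the cellulose ratio and less so for the other limits. The members nearest the cellulose limit were Glotr_126562, Glotr_37878 and Glotr_77409 at 0.0987, 0.0984 and 0.0967 of the glucose mean, and just outside stood Glotr_121375, Glotr_110372 and Glotr_48068 at 0.101, 0.104 and 0.104. On cedar, Glotr_66149, Glotr_21250 and Glotr_30388 stood just inside at 0.0992, 0.0986 and 0.0985, and Glotr_137102, Glotr_10171 and Glotr_111186 just outside at 0.111, 0.115 and 0.118. At the glucose limit, Glotr_18560, Glotr_21250 and Glotr_131335 were inside at 5.77, 7.19 and 7.85 TPM, and Glotr_96169, Glotr_133266 and Glotr_108758 outside at 3.04, 2.77 and 2.12 TPM. The gene models that failed a single criterion numbered 28 for the glucose level, 67 for the cellulose ratio and 68 for the cedar ratio, and none failed the criterion on overlap alone. The closest approach of glucose to the other libraries was in Glotr_117274, whose lowest glucose value was 2.54 times its highest value elsewhere, followed by Glotr_80652 at 3.18 and Glotr_139782 at 3.46.

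What these genes encode is known here only in part. Names were held for 1734 of the gene models and for 33 members, of which 15 were hypothetical proteins and 18 had another name. After the hypothetical proteins, dehydrogenases and related enzymes were the most frequent group by name or annotation. Of 59 such gene models 7 were members, where 33 of all 1734 with a name held were. The difference was not tested. Glotr_46305, named for its likeness to the flavoprotein AMID that oxidises NADH, had 479.8, 557 and 195 TPM on glucose, 12.5, 13.03 and 53.6 on cellulose and 9.69, 17.5 and 7.85 on cedar. Its low glucose library and its high cellulose library were both replicate 3. The glycerol dehydrogenase Glotr_29687, an enzyme class that converts between glycerol and its oxidised form, had 115, 164 and 236 TPM on glucose, with 8.37, 8.97 and 3.51 on cellulose and 4.24, 3.75 and 4.34 on cedar. Zinc-type alcohol dehydrogenases interconvert alcohols and aldehydes, and Glotr_34733, 1 of them, had 132, 92.7 and 86.3 TPM on glucose, where its means elsewhere were 0.707 TPM on cellulose and 0.498 TPM on cedar. The alcohol dehydrogenases Glotr_45800 and Glotr_39408 were lower, with glucose means of 74.4 and 13.7 TPM. The 2 remaining members of the group were Glotr_39102, described with the lipid genes, and Glotr_8683, a hypothetical protein with a dehydrogenase annotation and a glucose mean of 15.96 TPM.

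Enzymes of secondary metabolism were also among them. Polyketide synthases build carbon chains from acyl-CoA units, and of 44 gene models with names of secondary metabolism 2 were members, both polyketide synthases. Glotr_11514 had 384, 406 and 277 TPM on glucose, 7.54, 10.5 and 15.4 on cellulose and 13.99, 13.5 and 12.5 on cedar. Glotr_11868 had 335, 327 and 254 TPM on glucose, 3.35, 7.002 and 11.1 on cellulose and 11.5, 10.5 and 9.23 on cedar. In both the cedar libraries lay close together and within or near the range of the cellulose libraries. Their profiles resembled those of 5 members with no name held, Glotr_47979, Glotr_48034, Glotr_48097, Glotr_80921 and Glotr_80929, a group picked after its values were seen. Over these 7 the glucose mean was 31.5 to 45.0 times the cellulose mean and 26.7 to 37.5 times the cedar mean, in each of the 7 glucose replicate 3 was the lowest glucose library, as it was in 48.6% of the 181 members, and none of the 7 was found in the annotation. Pseudoalignment divides reads between transcripts of like sequence by estimation, and no sequence was compared here, so the values of these 7 may not be independent of each other. Among the 42 other gene models with such names 13 of 41 tested were lower on cellulose and 1 was higher, and 9 were lower on cedar and 5 were higher, by limma with p-values adjusted by Benjamini-Hochberg, taken at under 0.01 together with a change of the mean TPM of at least 2-fold. Over all gene models tested, 13.6% were called lower and 10.2% higher on cellulose, and 15.6% lower and 15.1% higher on cedar, each relative to glucose. Without the members, 12.1% were called lower on cellulose and 14.2% lower on cedar. These calls use the deposited scale. With all libraries brought to the same total TPM, the median log2 fold change of cellulose to glucose fell to -1.09, and 352 gene models were called higher and 5924 lower on cellulose in place of 1087 and 1446.

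The cytochrome P450 gene Glotr_38440 codes for a haem monooxygenase and was the only member of the 28 gene models with that name. It had 244, 209 and 202 TPM on glucose, 1.77, 3.38 and 3.68 on cellulose and 2.27, 2.13 and 2.77 on cedar, and its substrate libraries overlapped. Of the 26 other P450 genes tested, 6 were lower and 4 higher on cellulose, and 3 were lower and 10 higher on cedar. Transporters of the major facilitator superfamily move small molecules across membranes, and 2 of 38 with such a name were members. Glotr_6663, related to monocarboxylate carriers, had a glucose mean of 58.7 ± 5.35 TPM, with 3.18 ± 0.968 on cellulose and 2.58 ± 0.699 on cedar (SD, n = 3). Glotr_38489 had 41.8 ± 10.8, 0.658 ± 0.157 and 1.72 ± 0.635 TPM. Of the 33 other such transporters tested, 9 were lower and 6 higher on cellulose, and 5 were lower and 7 higher on cedar. The sulfate permease Glotr_37160, a carrier for sulfate uptake, was lower still, with 9.34, 10.4 and 23.1 TPM on glucose and means under 1 TPM on both substrates.

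Of 27 gene models named as glycoside hydrolases 2 were members, both of the family GH16, whose members cleave glucans including those of fungal cell walls. Glotr_44523 had 96.4, 86.3 and 115 TPM on glucose, 1.17, 2.69 and 19.3 on cellulose and 3.56, 1.95 and 4.44 on cedar. Its cellulose mean rested on replicate 3. Glotr_45916 had 19.3, 19.99 and 25.9 TPM on glucose, was listed at 0 in all 3 cellulose libraries and had 0.0321, 0.0285 and 0.0836 TPM on cedar. Its end overlaps another member, Glotr_100806, which was likewise listed at 0 on cellulose, and the libraries were made and counted by strand. Of the 24 other glycoside hydrolases tested, 8 were higher on cedar, and 5 were higher and 3 lower on cellulose. Of the 120 genes in the study's lists, which were not open to the choice, 1 met its numbers, as did 182 of all 11846 gene models. Many of the listed genes were called upregulated on cellulose or cedar by the study. Such genes cannot meet the rule, so the count of 1 is no result about the lists.

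Among lipid genes, Glotr_34332 carries a fatty acid desaturase annotation, for an enzyme that sets double bonds into fatty acids, and had 30.6, 27.5 and 51.7 TPM on glucose with means of 0.185 TPM on cellulose and 0.264 TPM on cedar. Glotr_39102, of the acyl-CoA dehydrogenase and oxidase class that opens the breakdown of fatty acids, had 21.97, 25.1 and 26.01 TPM on glucose and means of 1.70 and 1.80 TPM on cellulose and cedar. Glotr_47667, a histone-fold protein annotated as histone 2A, a core part of the nucleosome, had 144, 151 and 148 TPM on glucose, 13.1, 19.9 and 6.92 on cellulose and 7.96, 2.69 and 3.88 on cedar. The glucose libraries of this gene were nearly equal. No member was found among the 8 gene models named hydrophobin, the 25 named peptidase or protease, the 49 named transcription factor, the 24 named ribosomal protein, the 5 of nitrogen assimilation or the 11 of glycolysis and central carbon metabolism. These counts cover only gene models whose name was held, and 33 of those 1734 were members. At that share, the lack of a member in classes this small tells nothing about them.

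Positions were taken from the RefSeq annotation of the reference genome, in which 170 of the 181 members were found. The median span of these genes was 1202.5 bases, against 1476 bases over the 11422 gene models found. Members were often neighbours. Of the 170, 40 (23.5%) had another member as an immediate neighbour, while 2.43% of the 11583 annotated protein-coding genes that are not members had one. These 40 formed 15 runs, 1 of 8 genes, 1 of 4, 2 of 3 and 11 of 2. In windows of 50 consecutive genes the mean number of members was 0.692, 58.9% of windows held none, and the highest number was 10.

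The longest run held 8 members in 19448 bases. In order these were Glotr_39098 (hypothetical protein), Glotr_39102 (acyl-CoA dehydrogenase-like), Glotr_92054, Glotr_38440 (cytochrome P450), Glotr_104553, Glotr_127234, Glotr_38489 (major facilitator superfamily transporter) and Glotr_127236. The run thus joined an acyl-CoA dehydrogenase-like gene, a P450 gene and a transporter gene. Its other genes are hypothetical or have no name held, and no synthase is named among the 8. The glucose means of the 8 genes were 87.98, 24.3, 104, 218, 263, 185, 41.8 and 94.2 TPM in the order of the run. The glucose mean was 11.5 to 309 times the cellulose mean and 13.5 to 223 times the cedar mean over the 8 genes. In Glotr_92054, 111, 109.8 and 89.8 TPM on glucose stood against 0.579, 1.55 and 0.851 on cellulose and 0.543, 0.242 and 0.607 on cedar. Glotr_127236 had 114, 98.6 and 70.2 TPM on glucose, 0.218, 0.366 and 0.330 on cellulose and 0.6797, 0.591 and 0.799 on cedar, so that here cedar was above cellulose. On 1 side the run was bordered by Glotr_127230, no member, with 50.8, 46.6 and 48.6 TPM on glucose, 1.71, 8.04 and 6.28 on cellulose and 1.21, 1.12 and 1.38 on cedar. It was lower on both substrates, by limma, with log2 fold changes relative to glucose of -3.28 (adjusted p = 0.00188) for cellulose and -4.82 (adjusted p = 2.43e-07) for cedar. On the other side Glotr_92060 had under 1 TPM in every library.

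The second run held 4 members in 6228 bases, all of them abundant on glucose. The first, Glotr_41922, bears the name delta-endotoxin CytB, after a pore-forming toxin of bacteria, and had 387, 212 and 220.2 TPM on glucose, 5.40, 3.03 and 0.621 on cellulose and 12.7, 3.12 and 7.99 on cedar. Glotr_129666 had 2874, 1602 and 916 TPM on glucose, and its cellulose and cedar means were 6.82 and 12.6 TPM. Its glucose libraries spread over 3-fold. Glotr_111225 had 2347, 2197 and 1889.5 TPM on glucose, 176, 159 and 91.2 on cellulose and 68.98, 53.1 and 66.1 on cedar. Glotr_61365 had 2554, 2111 and 2729.5 TPM on glucose, 51.3, 50.3 and 25.2 on cellulose and 35.4, 15.7 and 31.1 on cedar. Of the genes on either side, Glotr_116290 had 4.50, 3.78 and 4.10 TPM on glucose and Glotr_76794 had 6.67, 5.66 and 5.66. Neither was called lower on the substrates, and Glotr_116290 was higher on cedar, with a log2 fold change of 1.92 (adjusted p = 4.72e-05).

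**Figure D3:**
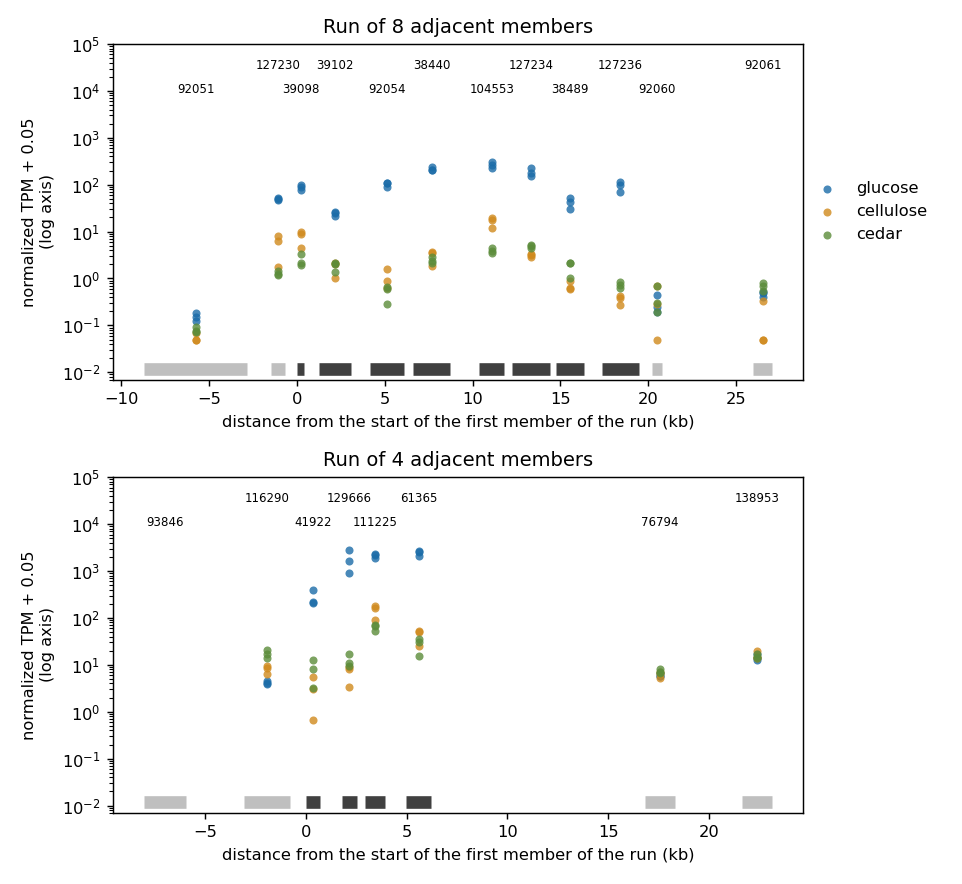
Normalized TPM + 0.05 (log axis) of the genes of the 2 longest runs of adjacent members and of 2 genes on each side, against the distance in kb from the start of the first member, with 1 point for each library (blue glucose, orange cellulose, green cedar) and the number of each gene model at the top. Dark blocks at the bottom are members and light blocks are not; the glucose points of the 8 and 4 members stand above their other points, Glotr_127230 is split in the same way, and Glotr_93846 has no value.

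The shorter runs had the same form. In 1 run of 3, Glotr_70186, Glotr_119349 and Glotr_33368 had glucose means of 140.5, 653 and 143 TPM, and beyond a single gene with a mean under 1 TPM in all groups lay a further member, Glotr_70192, with 769, 674 and 761 TPM on glucose and 0.717, 0.554 and 0.434 TPM on cellulose. In the other run of 3, Glotr_128046, Glotr_40130 (a WD40 repeat-like protein, of a fold that commonly holds other proteins together) and Glotr_59180 had glucose means of 12.8, 223 and 263 TPM. Glotr_110634 and Glotr_127937, both among the 10 highest members, lay next to each other.

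The pair Glotr_140983 and Glotr_132972 and the pair Glotr_132963 and Glotr_140982 looked like mirror images. In each, a gene of about the same span (1384 and 1284 bases) stood 863 bases from a shorter one (579 and 583 bases), and 27774 bases with 8 annotated genes lay between the pairs. The shorter genes were the highest and the third highest member, and the longer ones had 1047, 1151 and 1000.5 TPM and 334, 369 and 307 TPM on glucose. Where the pairs are copies of each other, reads may have been divided between them by the estimation, so their single values are less certain than their sums. On cellulose Glotr_140983 had 1.43, 3.43 and 2.07 TPM while the adjacent Glotr_132972 kept means of 862 TPM on cellulose and 115 TPM on cedar. The neighbours thus differed in the ratio to glucose.

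Outside the members, the genes next to them showed the change more often than genes at large by count, which was not tested. Of 260 such neighbours tested, 58 (22.3%) were lower on cellulose than on glucose, against 12.1% of all gene models that are not members, and 50 (19.2%) were lower on cedar, against 14.2%. Of the 28 genes tested that directly border the 15 runs, 4 were lower and 0 higher on cellulose, and 6 were lower and 3 higher on cedar. Beside the 12.1% and 14.2% given above, counts this small are too few to show a difference. The largest change among these was that of Glotr_127230. It stood just outside the cellulose limit of the choice, with means of 48.7 TPM on glucose, 5.35 on cellulose and 1.24 on cedar.

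Cedar and cellulose were not set against each other by the choice, so this comparison was tested on the members. The question was whether genes so much lower on both substrates than on glucose still differed between them. By limma over 10607 gene models, with the same thresholds, 15 of the 181 members (8.29%) were higher on cedar and 9 (4.97%) were higher on cellulose. Over all gene models tested the shares were 10.4% and 5.68%, so the members were called about as often as genes at large. The filter counts the glucose libraries too, and 6 of the 181 passed it only through these, among them Glotr_127974, listed at 0 in all cellulose and cedar libraries. None of the 6 was called. With the filter set on the 6 cellulose and cedar libraries alone, 16 of 175 members (9.14%) were higher on cedar and 9 (5.14%) on cellulose, where over all gene models it was 10.7% and 5.95%. The median log2 fold change was 0.15 over the 181 members and 0.05 over all gene models. The sign of the members' median depended on the scaling, as it was -0.15 with quantile normalization and 0.78 with all libraries at the same total TPM. All cedar libraries were above all cellulose libraries in 53 members (29.3%) and the reverse held in 30 (16.6%), where over all gene models tested it was 31.0% and 25.8%. In 98 members the substrate libraries overlapped, 5 of which were among the 6 that passed through glucose alone. The 157 members not called, the 6 included, may still differ by less than this number of libraries can show.

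The 9 genes that were higher on cellulose included 4 of the 5 highest members on glucose. The lowest glucose mean among the 9 was 223 TPM, against a median of 137 TPM over all members. Their glucose level was looked at after the calls were known, and a link to it was not tested. Of these 9, 6 lay next to another member, and none of the 15 that were higher on cedar did. Over the located members, 40 of 170 (23.5%) had such a neighbour. Of the 6, Glotr_40130 and Glotr_59180 stand in the same run, and Glotr_132972 and Glotr_132963 in the pairs that may be copies. The difference was not tested. A negative log2 fold change here stands for a higher level on cellulose. Glotr_111144, whose libraries are given with the highest members, showed the largest log2 fold change by limma (-5.00, standard error 0.535, adjusted p = 0.00141). Its cellulose mean was 39.4 times its cedar mean. For Glotr_132972 the cellulose mean was 7.53 times the cedar mean (log2 fold change -2.89, standard error 0.395, adjusted p = 0.00270), and for Glotr_132963 it was 6.82 times (log2 fold change -2.68, standard error 0.376, adjusted p = 0.00290). The cellulose mean of Glotr_76867 was 4.91 times its cedar mean (log2 fold change -2.24, standard error 0.298, adjusted p = 0.00250).

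The remaining genes higher on cellulose were less abundant. Glotr_129229 had 3.85, 27.99 and 6.22 TPM on cellulose and 0, 0 and 0.152 TPM on cedar, where it was nearly absent. Its log2 fold change by limma was -4.11 (standard error 0.658, adjusted p = 0.00443). The cellulose mean was 250 times the cedar mean, the largest such ratio among the genes higher on cellulose. The cellulose libraries of this gene spread over 7-fold. Glotr_76869 had 9.91, 22.95 and 12.5 TPM on cellulose and 1.49, 1.16 and 1.59 TPM on cedar (log2 fold change -2.95, standard error 0.305, adjusted p = 0.00134). The WD40 repeat-like gene Glotr_40130 had 9.37, 15.5 and 9.89 TPM on cellulose and 1.85, 2.11 and 2.23 TPM on cedar (log2 fold change -2.20, standard error 0.210, adjusted p = 0.00109), and its neighbour in the run, Glotr_59180, had 11.3, 21.8 and 9.94 TPM on cellulose and 4.58, 3.65 and 4.48 TPM on cedar. Glotr_104553, of the run of 8, had 11.8, 17.6 and 19.4 TPM on cellulose and 3.77, 3.51 and 4.49 TPM on cedar (log2 fold change -1.90, standard error 0.211, adjusted p = 0.00149). It was the only member of that run to pass the test.

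The 15 genes that were higher on cedar were mostly low on both substrates, with a median cellulose mean of 0.737 TPM and a median cedar mean of 2.81 TPM, and 13 had a cellulose mean under 5 TPM. Glotr_131054, listed at 0 in all cellulose libraries, had 2.84, 2.46 and 1.49 TPM on cedar (log2 fold change 2.43, standard error 0.210, adjusted p = 0.000894). Glotr_66149 was the most abundant of them, with 41.7, 35.7 and 42.9 TPM on cellulose and 94.00, 100.1 and 86.5 TPM on cedar (log2 fold change 1.21, standard error 0.133, adjusted p = 0.00144), and it was also the member nearest the limit of the choice on cedar. Glotr_117274 had 2.45, 1.72 and 2.99 TPM on cellulose and 8.04, 10.9 and 7.32 TPM on cedar (log2 fold change 1.69, standard error 0.225, adjusted p = 0.00250). Glotr_131674, Glotr_78861, Glotr_130803, Glotr_93283, Glotr_139203, Glotr_133812 and Glotr_70192 followed, with cedar means from 1.02 TPM (Glotr_133812) to 8.11 TPM (Glotr_139203), and adjusted p from 0.00189 (Glotr_131674) to 0.00739 (Glotr_133812). None of these 10 genes has a name held.

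**Figure D4:**
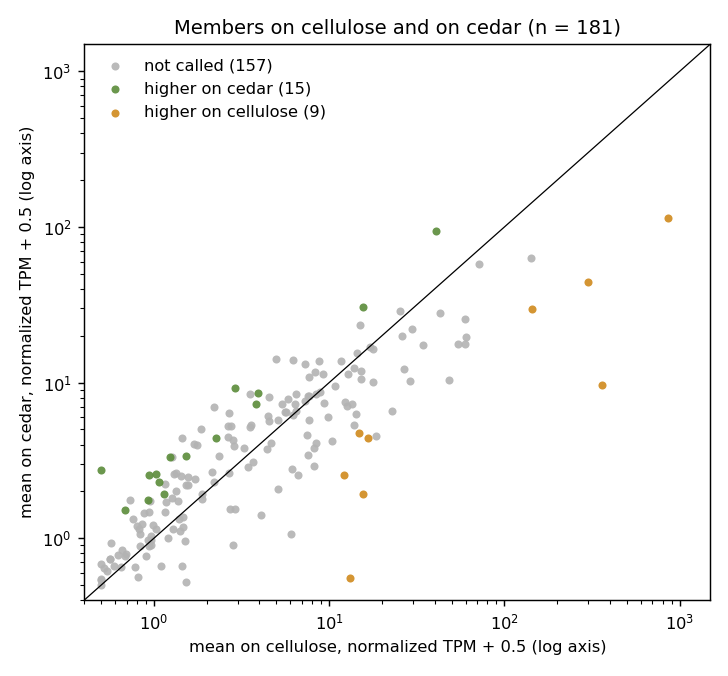
Mean on cedar against mean on cellulose for the 181 members, both as normalized TPM + 0.5 on log axes, with the line of equal means. The 15 members higher on cedar (green) have cellulose means from 0 to 40.1 TPM, and the 9 higher on cellulose (orange) from 11.6 to 862 TPM. The 157 grey members did not pass the test.

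These calls were fragile. Every named gene kept its direction under each scaling tried, but the number of calls moved. With all libraries brought to the same total TPM, which moves the median of the log2 fold changes over every gene model to 0.90, 72 members were higher on cedar and 8 on cellulose, and over all gene models the calls were 4850 and 136 in place of 1105 and 603. With quantile normalization 3 members were higher on cedar and 14 on cellulose. Without cedar replicate 3 only 1 and 2 members were called, and without cedar replicate 1 only 2 and 3. Without cellulose replicate 1, 9 members were higher on cedar and 8 on cellulose, and without cellulose replicate 3 the numbers were 17 and 18. Without cedar replicate 2 there were 10 and 6. The 3 genes called in all 6 fits that leave out a library were Glotr_131054, Glotr_76869 and Glotr_40130.

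The members varied more between the glucose cultures than expressed genes at large, by their medians. The rule used these same glucose values, and 1 high glucose library can lift a mean enough to meet it. The spread is therefore a description, and the part of the choice in it was not tested. Their median coefficient of variation on glucose was 16.6%, against 8.53% over the 7627 gene models with a glucose mean of at least 5 TPM, and in 36 members the highest glucose library was over 2 times the lowest. On glucose only replicate 3 was set against the mean of the other libraries, so replicates 1 and 2 have no such figure. Replicate 3 was the highest glucose library in 38.1% of the members, against 40.5% of the 7627. It was the lowest in 48.6%, against 39.0%. It was over 2 times the mean of the other glucose libraries in 17 members (9.39%, against 1.13% of the 7627) and under 0.5 of it in 11 members (6.08%, against 0.996%). Glotr_55959 had 5.07, 6.58 and 52.9 TPM on glucose, Glotr_130004 had 11.2, 30.6 and 77.3 and Glotr_66149 had 491, 709.9 and 1627. In the other direction, Glotr_117274 had 175, 146 and 27.8 TPM, and Glotr_129229 had 458, 497 and 215. Replicate 3 was thus high in some members and low in others. Leaving this library out, 179 genes met the rule, of which 171 were among the 181, and 10 of the 181 no longer met it.

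The substrate libraries differed as well. Cellulose replicate 3 was under 0.5 of the mean of the other cellulose libraries in 47 members (26.7% of the 176 with a value on cellulose) and over 2 times it in 22 (12.5%). Over gene models with a glucose mean of at least 5 TPM the shares were 5.94% and 4.47%. Cellulose replicate 2 was the highest cellulose library in 45.5% of these members and the lowest in 13.1%, against 28.2% and 28.9% of such gene models, and replicates 1 and 3 were the lowest in 77 and 76 members. Cedar replicate 2 was under 0.5 of the mean of the other cedar libraries in 28 members (15.6% of the 180 with a value on cedar) and over 2 times it in 4 (2.22%), against 3.55% and 0.918%. It was the lowest cedar library in 55.6% of the members with a value on cedar, against 43.7% of gene models with a glucose mean of at least 5 TPM. The gene models set beside the members here were taken by their glucose level alone. Members were chosen to be low on cellulose and cedar, with median means of 2.75 and 3.30 TPM. The part of that low level in these shares was not tested. For Glotr_119349 the cellulose libraries had 27.8, 36.7 and 114 TPM, and for Glotr_106548 they had 15.4, 11.6 and 0.771 TPM. The part of these libraries in the results was followed only by leaving each out in turn, which gave between 175 and 188 genes.

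**Figure D5:**
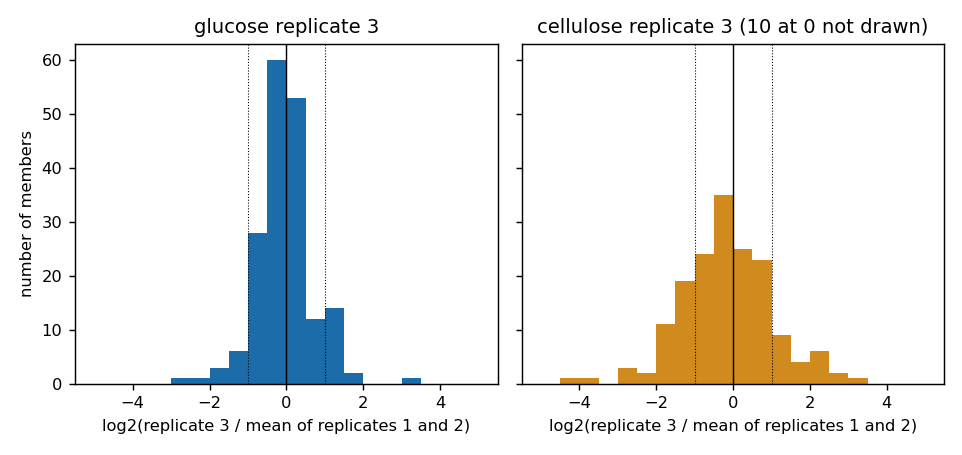
Number of members by the log2 ratio of replicate 3 to the mean of replicates 1 and 2, on glucose (left) and on cellulose (right), in bins of 0.5, with dotted lines at a ratio of 0.5 and 2. On glucose 17 members lie beyond the upper line and 11 beyond the lower one, and on cellulose 22 and 47, the latter with the 10 members at 0 that are not drawn.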

How the data were processed

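Reads were trimmed by the authors with FaQCs and pseudoaligned with kallisto 0.44.0 to the filtered set of JGI gene models, and sleuth 0.29.0 normalized the TPM between libraries. The authors deposited this signal as normalized TPM, in 1 column for each library, and 0 columns were left unused. They carry no read counts, so depth for a single gene is unknown, and precision came from the 3 libraries of a group. Libraries were strand-specific, and the study calls the 3 cultures of a group biological replicates.

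Members were found by the rule in Python 3.11.15 with pandas 2.3.3 and NumPy 2.4.6. Plots used matplotlib 3.10.9. Members, lists and tests were chosen with earlier results of these data known. Tests were two-sided with limma 3.58.1 in R 4.3.3 (eBayes, mean-variance trend) on log2(TPM + 0.5), without covariates, in the 2 groups compared. Gene models entered if 3 or more of the 9 libraries reached 0.1 TPM. Folds are ratios of mean TPM, and log2 fold changes include the added 0.5. The procedure was checked on simulated data with independent normal log2 values. Changes were put only into the more abundant genes there, so the check does not cover calls at low levels. Calls against glucose were used only for genes that are not members, and in the shares and counts over all gene models tested, which include the members.

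Genes named were the 10 highest on glucose, the 10 with the lowest larger ratio to glucose, up to 10 called in each direction between cedar and cellulose, up to 3 of each named family, 10 of the 15 runs of adjacent members (by number of members, then by glucose mean) and 3 genes on each side of each threshold. Others are named with their values known. Names came from the supplementary table held in part. Positions came from RefSeq (Glotr1_1), matched by locus tag number. Among 1044 names that carry a locus tag, its number equalled that of the gene model in 1021. Scaffolds are not named there, so no coordinates are given. Searches of proteins for hydrophobin-like cysteine spacing and of promoters for motifs were planned and not run, because no sequences were at hand. Alternatives were other added values, filters, scalings, fits, thresholds and limits of the rule, and leaving out each library.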

Additional observations from a re-analysis of the deposited data

How the results depend on the processing

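The number of glucose-confined genes was 104 with a ratio limit of 0.05 and 312 with 0.2. It was 176 to 244 under the other scalings and 173 and 188 with a glucose limit of 10 or 1 TPM. Leaving out each library gave 175 to 188.

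For cedar compared with cellulose, calls of members higher on cedar and on cellulose (15 and 9) became 3 and 14 under quantile normalization, 72 and 8 with the same total TPM, 34 and 16 at an adjusted p under 0.05, and 16 and 15 with all 3 groups in 1 fit. Leaving out each library gave 1 to 17 higher on cedar and 2 to 18 higher on cellulose. Over all gene models, the 1105 calls higher on cedar became 4850 with the same total TPM and 696 after quantile normalization, and the 603 higher on cellulose became 136 with the same total TPM and 382 without a filter. Leaving out a library gave 199 to 1175 and 89 to 778. For cellulose compared with glucose, the same total TPM gave 352 gene models higher and 5924 lower on cellulose, with a median shift of -1.09 on the log2 scale, and leaving out a library gave 748 to 1242 and 951 to 1469. For cedar compared with glucose, leaving out a library gave 1416 to 1690 higher and 1524 to 1626 lower on cedar, and no alternative moved a count by over 1.5 times. Of the 19 named genes called between cedar and cellulose, none changed its direction under any alternative.

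Replicate numbers are shared between the groups and nothing in the labels pairs them. The correlations of the deviations of same-numbered cedar and cellulose libraries were 0.18, -0.39 and -0.24, so the numbers were not taken to pair the samples. With the replicate block, cedar compared with cellulose gave 5 gene models higher on cedar and 0 on cellulose, and 0 members in either direction by limma, where 47 members had an unadjusted p under 0.05 on the side of cedar and 29 on that of cellulose, as had 2077 gene models on that of cellulose. With the same replicate block, 1009 gene models were higher and 1271 lower on cellulose than on glucose, and 1564 were higher and 1623 lower on cedar.

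For this comparison no second tool was run, since the values are not counts. The limits are those of 3 libraries a group, of values without counts, of a culture age that changes with the carbon source, of names for 33 of the 181 genes, and of like transcripts whose reads cannot be told apart. The causes of the moved counts were not tested.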

Other observations

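One gene of the study's lists met the numbers of the choice, Glotr_45893, a family AA9 gene. Genes of this family encode copper enzymes that cleave polysaccharides by oxidation. It had 31.7, 19.1 and 10.9 TPM on glucose, 1.73, 1.40 and 0.466 on cellulose and 1.75, 1.27 and 1.93 on cedar. The glucose libraries of this gene spread widely and lay above all others.

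The window of 50 consecutive genes with the most members held 10 of them in 203336 bases. These were the 8 genes of the longest run together with the pair Glotr_110324 and Glotr_92073. Glotr_110324 had 1375, 1257 and 1109.8 TPM on glucose, 35.99, 23.2 and 17.05 on cellulose and 21.1, 20.4 and 16.96 on cedar. Glotr_92073 had 375, 449.7 and 425 TPM on glucose, 18.7, 14.4 and 11.2 on cellulose and 11.1, 11.9 and 11.3 on cedar. The pair was thus more abundant on glucose than any of the 8.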
